A study of Homo sapiens with 42 samples.

Results

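TXNIP, 2 other arrestin-domain genes and 7 genes of the MondoA and MYC transcription factor network were followed across 10 groups of AC16 cells, a human line that the labels call cardiomyocyte-like. The 10 genes are TXNIP, ARRDC4, ARRDC3, MLX, MLXIP, MAX, MYC, MXD4, MXI1 and MNT, out of 60606 genes in the deposited TPM table. The 9 genes other than TXNIP are its arrestin-domain relatives and members of the network around it, chosen with earlier results of these data known. TXNIP was chosen by its large rise in these same libraries. TXNIP levels in comparisons that involve shScramble or shRPL3 are therefore a description with no test. Of the 10 genes, 9 averaged at least 1 TPM (a relative transcript level corrected for transcript length) and entered the tests, whereas ARRDC4 averaged less.

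Expression of RPL3, which encodes a ribosomal protein, was reduced with a doxycycline-induced hairpin, and the muscle paralog RPL3L was added in normal or mutant form. PolyA RNA of whole cells was sequenced in 30 libraries, 3 in each group. The 7 variant groups carried the RPL3 hairpin with an RPL3L construct holding D308N, D308V, G27D, R343W, P291L, T189M or R161W. The title of the P291L samples calls that construct doxycycline-inducible, which the titles of the others do not. RPL3L-WT cells carried the hairpin with normal RPL3L, shRPL3 cells the hairpin alone, and shScramble cells a scrambled hairpin. All 10 groups received doxycycline at 1 ug/ml in low-glucose medium. Cells with the RPL3 hairpin were selected with hygromycin, and cells with a construct were then sorted for BV421 signal. The promoter of the construct, and whether a line is 1 clone or the libraries of a group are separate cultures, are not stated in the labels. The p-values therefore measure the spread between libraries, which may be technical.

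TXNIP is an arrestin-domain protein that binds thioredoxin, restrains glucose uptake by promoting the internalization of glucose transporters, and rises when sugar phosphates accumulate in the cell. MondoA, the product of MLXIP, pairs with MLX, enters the nucleus when glucose-6-phosphate accumulates, and binds E-box pairs known as carbohydrate response elements in the promoters of TXNIP and ARRDC4. MYC pairs with MAX at E-boxes to activate growth genes, and MXD4, MXI1 and MNT compete for MAX and recruit the SIN3 corepressor. MLX also pairs with some of these repressors, so the MondoA and MYC branches share partners.

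Promoter stretches of TXNIP and ARRDC4 are shown because these are the best-known MondoA targets among the 10 genes and both had higher levels with the RPL3 hairpin. RefSeq promoter windows on GRCh38.p14, running from 250 bases before to 50 after a start site, were found for 9 of the 10 genes in 14 windows, and none was used for MYC. Capitals mark each CACGNG on either strand (CNCGTG on the other), which includes the E-box CACGTG, and both sequences read 5′ to 3′ toward the start site.
TXNIP, chr1:145996580-145996829, minus strand: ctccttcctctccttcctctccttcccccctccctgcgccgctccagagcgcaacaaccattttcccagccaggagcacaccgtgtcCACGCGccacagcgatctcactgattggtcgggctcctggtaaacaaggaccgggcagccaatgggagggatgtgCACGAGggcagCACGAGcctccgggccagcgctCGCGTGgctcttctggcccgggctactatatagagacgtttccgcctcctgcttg
ARRDC4, chr15:97960453-97960702, plus strand: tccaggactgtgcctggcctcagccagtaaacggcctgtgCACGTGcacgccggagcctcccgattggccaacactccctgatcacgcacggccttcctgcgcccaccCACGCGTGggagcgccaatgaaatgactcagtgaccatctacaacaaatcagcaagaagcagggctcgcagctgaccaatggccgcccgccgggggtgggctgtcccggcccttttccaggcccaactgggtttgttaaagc

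Another TXNIP window, at chr1:145995695-145995994, held no CACGNG match. The TXNIP window shown held 4 CACGNG matches, beginning 163, 88, 77 and 55 bases before the start. The middle pair, 2 CACGNG with 5 bases between, has the spacing of a carbohydrate response element and reads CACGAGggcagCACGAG at chr1:145996651-145996667. That spacing occurred in 20 of 35116 RefSeq windows, or 0.057%, against 30.5% of windows with any CACGNG. ARRDC4 held 3 CACGNG matches and no such pair, and the run CACGCGTG in it is a pair of overlapping matches on opposite strands. CACGTG itself was present in 7.26% of all windows and in the windows of ARRDC4, MLX, MXD4 and MNT. A stretch of 30 bases from each of those 4 windows shows what flanks the E-box, which is in capitals.
ARRDC4, chr15:97960481-97960510, plus strand: aaacggcctgtgCACGTGcacgccggagcc
MLX, chr17:42567038-42567067, plus strand: gcgggcgcgggtCACGTGggcacgccaccc
MXD4, chr4:2262330-2262359, minus strand: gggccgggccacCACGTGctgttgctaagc
MNT, chr17:2401236-2401265, minus strand: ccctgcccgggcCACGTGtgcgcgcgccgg
CCAAT, the box bound by NF-Y, was on either strand in 34.6% of windows. It had 2 matches in the TXNIP window shown, none in the other TXNIP window and 3 in the ARRDC4 window. These matches describe letters in a window, and no binding was measured.

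Some libraries went against their labels or stood apart. RPL3 was at 499.6 to 569.8 TPM in shRPL3, against 1534 to 1611 TPM in shScramble. Among the constructs, R161W libraries held 1059 to 1686 TPM of RPL3 and T189M libraries 779.7 to 1246 TPM, against 439.3 to 737.2 TPM in the other groups with the hairpin. RPL3L was at 2145 to 5198 TPM in construct groups, but replicate 3 of shRPL3, a group with no construct by its label, held 121.3 TPM where replicates 1 and 2 held 0.029 and 0.035 TPM. A set of 6 libraries, called the second kind, stood apart from the other 24 on the first principal component of 337 pseudogenes, and 57.8% of tested genes differed between the kinds in a limma fit with the kind as a term. They were RPL3L-WT replicates 1 and 2, T189M replicates 1 and 2, G27D replicate 3 and R161W replicate 1. In that fit the second-kind minus first-kind difference on the log2 scale was 0.71 for MLXIP, 0.51 for MAX, 0.51 for MNT and 0.46 for MXD4. It was -0.36 for TXNIP, -0.25 for MYC and -0.21 for MLX, all 7 past an adjusted p of 0.05. For ARRDC3 it was -0.06 and for MXI1 0.09 (adjusted p = 0.641 and 0.291 from limma). The labels name no batch behind the kinds. Results are given from the fit that pools all libraries, and values from the fit with the library kind as a term are given beside many of them. Over all 30 libraries, 1 of 14 cardiomyocyte markers, GATA4, averaged at least 1 TPM and 7 including MYH6, MYH7 and TTN averaged near 0. NKX2-5, among these 7, reached 0.47 TPM in its highest library. All 10 fibroblast or mesenchymal markers averaged at least 1 TPM, although POSTN averaged 1.11 TPM and was at 0.095 TPM in its lowest library. Summed over the list, cardiomyocyte markers came to 2.40 to 6.81 TPM per library and fibroblast or mesenchymal markers to 5026 to 7401 TPM. Their part in the results was not tested.

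TXNIP was almost silent in shScramble and strongly expressed in every group with the RPL3 hairpin, whichever construct the cells carried. It stood at 124.7, 126.8 and 113.0 TPM in shRPL3, against 1.05, 0.84 and 1.28 TPM in shScramble. All 27 hairpin libraries lay above all 3 shScramble libraries, and the lowest of them, at 42.5 TPM, was 33.2-fold above the highest shScramble library. Mean TXNIP in shRPL3 was 115-fold that in shScramble, or 5.90 on the log2(TPM + 1) scale and 6.73 with a pseudocount of 0.1. The log2(TPM + 1) scale, used for every fold change here, understates the change of genes with low levels. In bulk RNA, more cells that express TXNIP and more TXNIP RNA per cell cannot be told apart. The files hold no read counts, so the depth behind each value is unknown.

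Among the groups with the RPL3 hairpin, TXNIP was highest with the variants D308N and D308V and lowest with R161W. D308N libraries held 198.3, 179.6 and 183.2 TPM, and D308V libraries 177.2, 178.2 and 186.3 TPM, the top of all groups. G27D stood at 127.7, 126.8 and 91.7 TPM, R343W at 115.6, 110.5 and 110.3 TPM, and P291L at 108.9, 106.3 and 108.0 TPM. T189M held 62.9, 65.8 and 86.0 TPM, R161W 43.3, 42.5 and 48.0 TPM, and RPL3L-WT 70.7, 68.5 and 98.2 TPM. In order of mean level the groups ran shScramble 1.06, R161W 44.6, T189M 71.6, RPL3L-WT 79.1, P291L 107.7, R343W 112.1, G27D 115.4, shRPL3 121.5, D308V 180.6 and D308N 187.0 TPM. Libraries of neighbouring groups overlapped between T189M and RPL3L-WT, along R343W, G27D and shRPL3, and between D308V and D308N; the other neighbours did not overlap, although P291L and R343W were separated by less than 2 TPM.

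**Figure D1:**
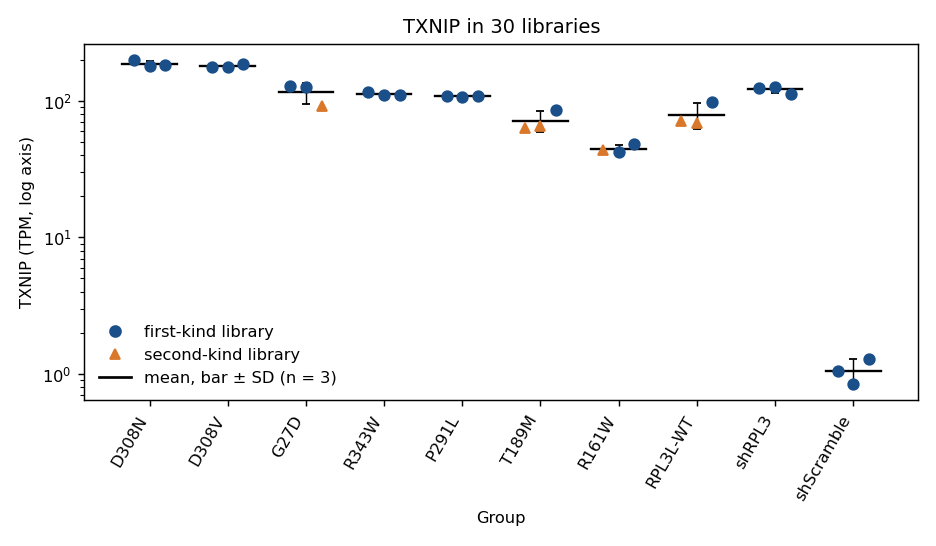
TXNIP in each library by group, in TPM on a log axis; circles are first-kind and triangles second-kind libraries, and lines and bars give the mean ± SD of 3 libraries. The 3 shScramble libraries sit near 1 TPM and the 27 hairpin libraries between 42.5 and 198.3 TPM, with both D308 variants at the top.

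D308N and D308V carried more TXNIP than RPL3L-WT, and R161W carried less. All 7 comparisons with RPL3L-WT share the 3 RPL3L-WT libraries, of which 2 are of the second kind. TXNIP was 1.25 ± 0.13 higher in D308N and 1.20 ± 0.13 higher in D308V on the log2 scale (difference ± SE, adjusted p = 2.15e-07 and 3.63e-07, limma), and every library of both variants lay above every RPL3L-WT library. With the library kind as a term the differences were 1.01 and 0.96 (adjusted p = 2.73e-09 and 7.52e-09). R161W lay below RPL3L-WT in every library, with a difference of -0.80 ± 0.13 (adjusted p = 0.000169) and -0.92 with the kind term (adjusted p = 7.99e-09). A fit of R161W and RPL3L-WT libraries alone gave the same difference with an adjusted p of 0.144. R161W was also the group whose RPL3 level was nearest to shScramble, at 1438 TPM on average against 519.3 TPM in RPL3L-WT. Those averages mix library kinds. In first-kind libraries RPL3 averaged 1628 TPM in R161W and 1570 TPM in shScramble, and the 1 such RPL3L-WT library held 673.5 TPM. The part of RPL3 in the TXNIP difference was not tested.

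The intermediate variants gave smaller differences whose calls turned on single libraries or settings. G27D was 0.54 ± 0.13 higher than RPL3L-WT (adjusted p = 0.0184, limma) and 0.42 higher with the kind term (adjusted p = 0.00081), but its libraries overlapped those of RPL3L-WT. The call was lost without RPL3L-WT replicate 1 or 2 or without G27D replicate 1 or 2, with adjusted p of 0.106 to 0.126, and in a fit of the 2 groups alone (adjusted p = 0.69). R343W was 0.52 ± 0.13 higher (adjusted p = 0.00355) and 0.28 higher with the kind term (adjusted p = 0.015), while first-kind libraries alone gave 0.19 (adjusted p = 0.157). P291L lay above RPL3L-WT in every library by 0.46 ± 0.13, which missed the threshold (adjusted p = 0.0516), and by 0.22 with the kind term (adjusted p = 0.212). After median-ratio scaling the P291L difference was 0.36 (adjusted p = 0.0345), and without RPL3L-WT replicate 3 it was 0.62 (adjusted p = 0.00275). The latter fit leaves only second-kind libraries in RPL3L-WT, while all P291L libraries are of the first kind. Variant and library kind therefore cannot be told apart in it. T189M differed from RPL3L-WT by -0.14 ± 0.13 (adjusted p = 0.717), and D308N from D308V by 0.05 ± 0.13 (adjusted p = 0.968).

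ARRDC4, an arrestin-domain gene that MondoA controls alongside TXNIP, was scarce in all groups and higher in shRPL3 and RPL3L-WT than in shScramble. Its levels were 0.71, 0.61 and 0.62 TPM in shRPL3, against 0.085, 0.16 and 0.080 TPM in shScramble. Of the 27 libraries with the hairpin, 26 lay above all 3 shScramble libraries, the exception being an R343W library at 0.13 TPM. Because ARRDC4 averaged under 1 TPM it was tested only in the limma fit without a filter on low values, over 39832 genes. There it was 0.57 ± 0.10 higher in shRPL3 than in shScramble (adjusted p = 0.000278), in a comparison that called 11.5% of genes, and 0.34 higher in RPL3L-WT than in shScramble (adjusted p = 0.0178, 16.5% of genes called). Without shRPL3 replicate 3 the first difference was 0.58 (adjusted p = 0.00128).

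Variant groups differed in ARRDC4 in another order than in TXNIP. D308V held 0.87, 0.92 and 0.70 TPM and D308N 0.64, 0.41 and 0.66 TPM, against 0.16, 0.52 and 0.57 TPM in RPL3L-WT. D308V was 0.38 higher than RPL3L-WT (adjusted p = 0.0155, limma without a filter, 9.22% of genes called) and 0.35 higher with the kind term (adjusted p = 0.0553). D308N differed from RPL3L-WT by 0.15 (adjusted p = 0.401). R343W libraries, at 0.13, 0.23 and 0.24 TPM, had the lowest mean of the groups with the hairpin and lay 0.46 below shRPL3 (adjusted p = 0.00496, 6.06% of genes called, and 0.0155 without shRPL3 replicate 3). At these levels the TPM scale resolves little, and no adjusted p was under 0.05 for any other ARRDC4 comparison.

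ARRDC3, an arrestin-domain gene that guides receptors to ubiquitin ligases, was lower in shRPL3 and RPL3L-WT than in shScramble. Its levels were 7.92, 9.67 and 8.79 TPM in shRPL3, against 10.4, 12.3 and 12.2 TPM in shScramble, and the groups did not overlap. RPL3L-WT held 6.07, 5.81 and 6.53 TPM, below all shRPL3 libraries. The differences were -0.37 ± 0.13 for shRPL3 minus shScramble (adjusted p = 0.0328, limma), -0.45 ± 0.13 for RPL3L-WT minus shRPL3 (adjusted p = 0.0113) and -0.82 ± 0.13 for RPL3L-WT minus shScramble (adjusted p = 2.65e-05). In the fit with the kind term they were -0.37, -0.42 and -0.79 (adjusted p = 0.0221, 0.0373 and 0.000117). The first was lost without shScramble replicate 2 or 3 or shRPL3 replicate 1 or 3 (adjusted p = 0.0675 to 0.133) and without a filter (adjusted p = 0.0835). The second was lost without shRPL3 replicate 2 (adjusted p = 0.0547) or RPL3L-WT replicate 2 (adjusted p = 0.0512), and after scaling (-0.26, adjusted p = 0.151).

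D308N and D308V, alike in TXNIP level, had different levels of ARRDC3. D308N libraries held 13.1, 11.2 and 12.3 TPM, near the shScramble level, against 6.59, 9.69 and 7.70 TPM in D308V. D308N was 0.89 ± 0.13 above RPL3L-WT (adjusted p = 2.64e-05, limma) and 0.85 above it with the kind term (adjusted p = 8.44e-05). Against D308V, a different residue at the same position, D308N was higher by 0.57 ± 0.13 (adjusted p = 0.0259, and 0.00791 with the kind term). The pooled call was lost on leaving out any 1 library except D308V replicate 2 (adjusted p = 0.0565 to 0.143). D308N was 0.43 above shRPL3 (adjusted p = 0.0239, and 0.0124 with the kind term). The pooled call against shRPL3 was lost without shRPL3 replicate 1 or 3 or D308N replicate 1 or 3 (adjusted p = 0.0569 to 0.108).

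MLXIP, which encodes MondoA, passed the test in no comparison, pooled or with the kind term. Its group means ran between 19.6 TPM in shScramble and 31.4 TPM in T189M, and its highest libraries, at 31.6 to 37.8 TPM, were all 6 of the second kind. MLXIP was 19.7 TPM on average in shRPL3 and 19.6 TPM in shScramble. The comparison of RPL3L-WT with shRPL3 gave 0.54 ± 0.24 pooled and 0.07 with the kind term (adjusted p = 0.0727 and 0.765, limma). Without RPL3L-WT replicate 3, the only first-kind library of its group, the pooled difference was 0.76 (adjusted p = 0.0162), and after median-ratio scaling it was also 0.76 (adjusted p = 0.0456).

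MLX, the partner through which MondoA binds DNA, had lower levels in every library with the RPL3 hairpin than in shScramble. It stood at 43.6, 43.6 and 43.8 TPM in shRPL3, against 55.3, 51.4 and 52.3 TPM in shScramble. All 27 libraries with the hairpin lay below all 3 shScramble libraries. The difference was -0.27 ± 0.08 for shRPL3 (adjusted p = 0.00898, limma, and 0.0241 without shRPL3 replicate 3) and -0.29 ± 0.08 for RPL3L-WT (adjusted p = 0.00434). For RPL3L-WT it was -0.15 with the kind term (adjusted p = 0.0259) and -0.08 after median-ratio scaling (adjusted p = 0.283). RPL3L-WT minus shRPL3 gave -0.02 pooled (adjusted p = 0.876) and 0.20 after scaling (adjusted p = 0.0147), so its sign depends on the scaling. With the kind term MLX was lower than in RPL3L-WT in D308N by 0.24, in D308V by 0.20 and in R343W by 0.24 (adjusted p = 0.00172, 0.00581 and 0.00159), calls that the pooled fit did not make.

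MYC, the growth-promoting transcription factor, was higher in shRPL3 than in shScramble. Its levels were 65.7, 61.7 and 69.0 TPM in shRPL3, against 47.4, 43.5 and 48.7 TPM in shScramble, without overlap. The difference was 0.48 ± 0.09 (adjusted p = 0.000117, limma), and 0.45 without shRPL3 replicate 3 (adjusted p = 0.00127). RPL3L-WT held 49.5, 50.9 and 57.9 TPM, which was 0.31 ± 0.09 below shRPL3 (adjusted p = 0.00946) and 0.14 below it with the kind term (adjusted p = 0.0467). Without shRPL3 replicate 3 it was 0.27 below (adjusted p = 0.045). The call of RPL3L-WT against shRPL3 was lost without RPL3L-WT replicate 1 (adjusted p = 0.0557) and after scaling (-0.09, adjusted p = 0.254). RPL3L-WT against shScramble gave 0.18 ± 0.09 pooled (adjusted p = 0.0975) and 0.35 with the kind term (adjusted p = 6.62e-06).

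MYC was highest with D308N and D308V, the variants with the most TXNIP. D308N held 80.2, 78.8 and 79.5 TPM and D308V 74.8, 74.3 and 73.2 TPM, all above every other library. D308N lay 0.58 ± 0.09 and D308V 0.48 ± 0.09 above RPL3L-WT (adjusted p = 2.53e-05 and 0.000217, limma), and 0.42 and 0.32 above it with the kind term (adjusted p = 1.01e-06 and 4.39e-05). P291L, at 65.9 to 67.8 TPM, was 0.33 above RPL3L-WT (adjusted p = 0.0394) and R343W, at 60.9 to 63.0 TPM, 0.22 above it (adjusted p = 0.0497). Both of these were lost with the kind term (adjusted p = 0.0993 and 0.448) and on leaving out any 1 library except RPL3L-WT replicate 3 (adjusted p = 0.0856 to 0.209). R161W, at 42.2, 50.2 and 51.1 TPM, differed from RPL3L-WT by -0.14 ± 0.09 (adjusted p = 0.282) and by -0.23 with the kind term (adjusted p = 0.00106). D308N was 0.28 above shRPL3 (adjusted p = 0.0276, and 4.23e-05 with the kind term). The pooled call was lost on leaving out any 1 library except shRPL3 replicate 3 (adjusted p = 0.0635 to 0.125). D308V was 0.18 above shRPL3 (adjusted p = 0.18, and 0.00429 with the kind term).

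MAX, the shared partner of MYC and its antagonists, was not called in shRPL3 against shScramble and was higher in RPL3L-WT than in both. Its levels were 33.7, 38.0 and 32.3 TPM in shRPL3, against 35.3, 36.4 and 35.4 TPM in shScramble (difference -0.04 ± 0.16, adjusted p = 0.862, limma). RPL3L-WT held 60.2 and 62.8 TPM in its second-kind libraries and 39.0 TPM in the other. RPL3L-WT was 0.60 ± 0.16 above shRPL3 and 0.55 ± 0.16 above shScramble (adjusted p = 0.00622 and 0.00633), and 0.26 and 0.21 with the kind term (adjusted p = 0.0106 and 0.0194). Without RPL3L-WT replicate 2 both missed the threshold (adjusted p = 0.0534 and 0.0521), and first-kind libraries alone gave 0.17 and 0.12 (adjusted p = 0.242 and 0.326). The difference of MAX from shRPL3 was 0.38 in D308N, 0.32 in D308V, 0.23 in P291L and 0.17 in R343W, which the pooled fit did not call (adjusted p = 0.101, 0.189, 0.33 and 0.517) and the fit with the kind term did (adjusted p = 6.24e-05, 0.000563, 0.00627 and 0.0465). R343W lay 0.43 below RPL3L-WT in the pooled fit (adjusted p = 0.0387), against a difference of 0.001 in first-kind libraries alone. That call held on leaving out RPL3L-WT replicate 3 and was lost without any 1 of the other 5 libraries (adjusted p = 0.0638 to 0.205).

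MXD4, a repressor that pairs with MAX, was lowest where MYC and TXNIP were highest. D308V held 15.9, 14.0 and 15.4 TPM and D308N 14.8, 18.8 and 17.3 TPM, against 29.9, 29.6 and 20.1 TPM in RPL3L-WT. D308V lay 0.75 ± 0.17 and D308N 0.60 ± 0.17 below RPL3L-WT (adjusted p = 0.0022 and 0.0105, limma), with no overlap. With the kind term the differences were -0.45 and -0.29 (adjusted p = 0.0105 and 0.0881), and first-kind libraries alone gave -0.39 and -0.24 (adjusted p = 0.11 and 0.337). The D308N call was lost without RPL3L-WT replicate 1 or 2 or D308N replicate 1 (adjusted p = 0.0531 to 0.0622). R161W, at 37.1, 28.8 and 29.1 TPM, differed by 0.26 pooled (adjusted p = 0.324) and by 0.41 with the kind term (adjusted p = 0.0121). shRPL3 libraries, at 20.4 to 23.0 TPM, lay below all shScramble libraries, at 23.6 to 31.3 TPM, with a difference of -0.36 ± 0.17 (adjusted p = 0.117, and 0.012 with the kind term). Relative to shRPL3, D308V differed by -0.48 and D308N by -0.33 (adjusted p = 0.0591 and 0.209, and 0.00223 and 0.0284 with the kind term).

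MXI1 and MNT, the remaining MAX partners, showed few calls. MXI1 group means ran between 15.8 and 21.2 TPM. MXI1 was 0.35 ± 0.10 higher in D308N than in RPL3L-WT, at 22.7, 21.6 and 19.2 TPM against 17.1, 15.8 and 16.3 TPM (adjusted p = 0.00831, limma). It was 0.41 higher with the kind term (adjusted p = 0.00376) and 0.20 higher after scaling (adjusted p = 0.166). In R161W it was 0.29 above RPL3L-WT (adjusted p = 0.0416) and 0.32 above it with the kind term (adjusted p = 0.0152). The pooled call was lost on leaving out any 1 of the 6 libraries (adjusted p = 0.0532 to 0.137). In P291L it was 0.29 below shRPL3 (adjusted p = 0.036, and 0.0153 with the kind term). The pooled call in P291L was lost without shRPL3 replicate 2 or 3 or P291L replicate 1 or 2 (adjusted p = 0.056 to 0.171). The kind term added a difference of -0.30 for RPL3L-WT minus shRPL3 and 0.30 for R343W minus RPL3L-WT in MXI1 (adjusted p = 0.0344 and 0.031), which the pooled fit did not call (adjusted p = 0.056 and 0.0615). MNT group means ran between 12.9 TPM in D308N and 20.2 TPM in T189M, and no pooled comparison passed. In the fit with the kind term, MNT was 0.55 above RPL3L-WT and 0.38 above shRPL3 in R343W (adjusted p = 0.0107 and 0.0408).

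**Figure D2:**
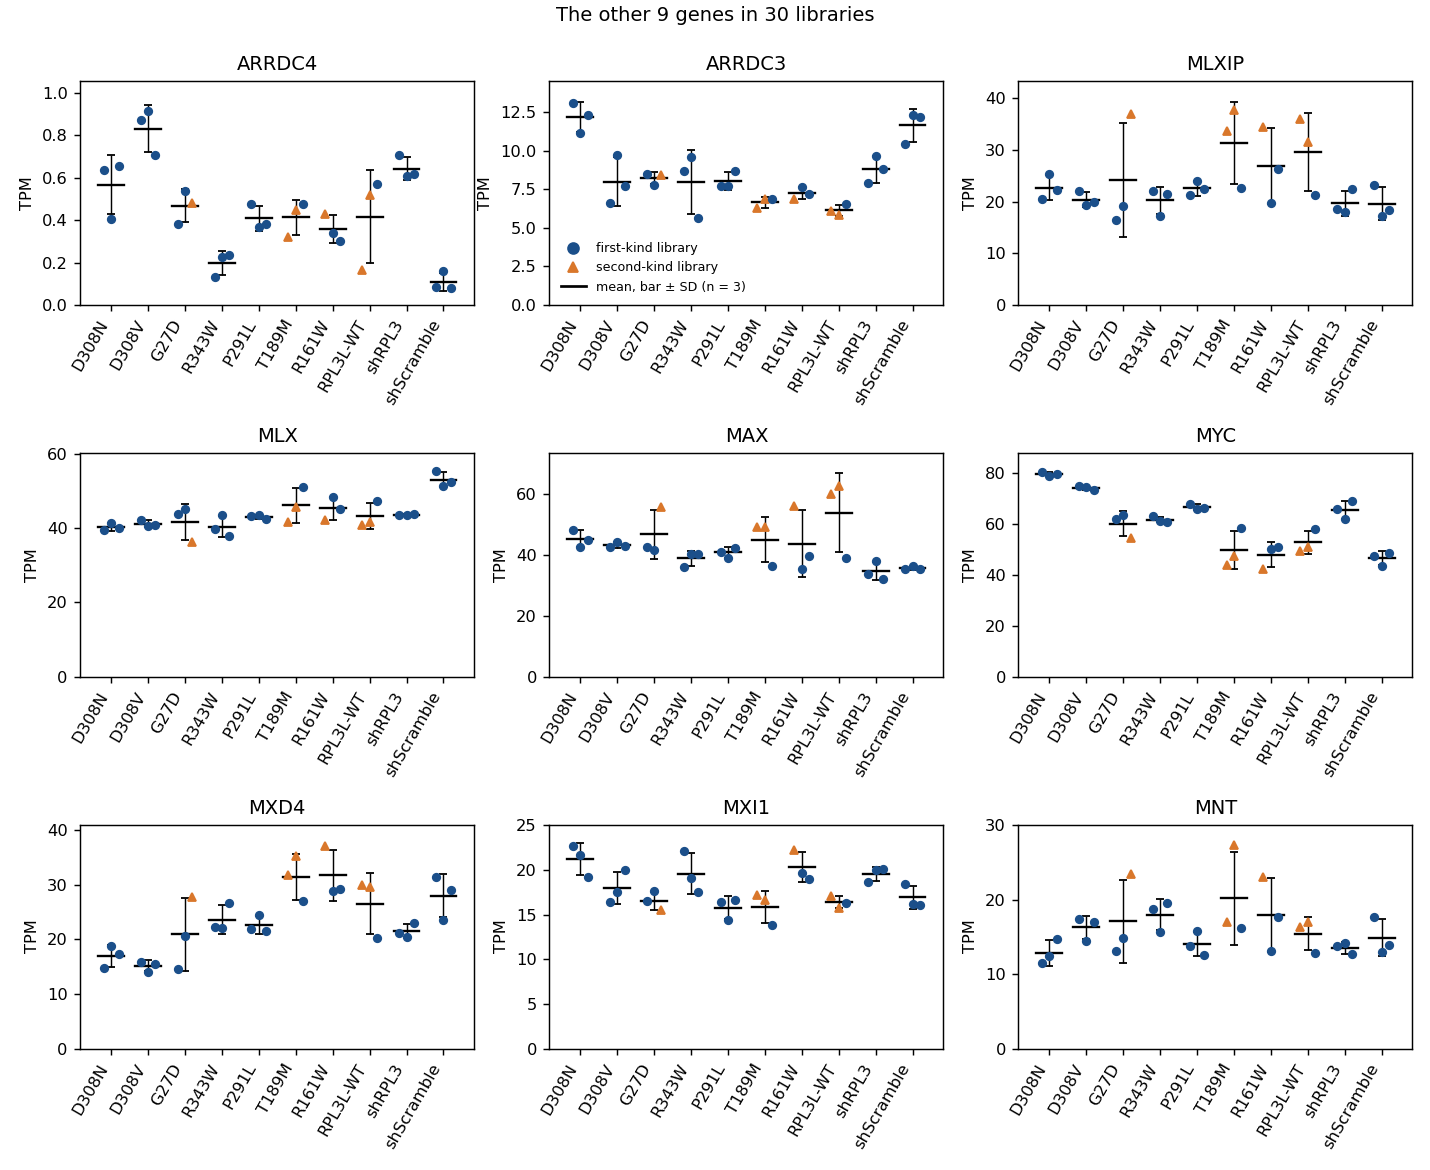
The other 9 genes in each library by group, in TPM on axes that start at 0; circles are first-kind and triangles second-kind libraries, and lines and bars give the mean ± SD of 3 libraries. MLX is below shScramble in all 27 libraries with the hairpin, and MYC peaks in D308N and D308V at 73.2 to 80.2 TPM.

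In the pooled fit, the share of members called was near the share of all genes called in the comparisons among shRPL3, RPL3L-WT and shScramble. For shRPL3 against shScramble, 1 of 8 members other than TXNIP was called higher (MYC) and 2 lower (ARRDC3 and MLX), where 35.2% of all 14426 tested genes were called, 17.2% higher and 18.0% lower. With the kind term 48.9% of genes were called and 4 members. For RPL3L-WT against shRPL3, 3 of 8 were called (MAX higher, ARRDC3 and MYC lower) beside 36.0% of all genes, 5.77% higher and 30.2% lower, and with the kind term 4 members beside 26.4%. For RPL3L-WT against shScramble, 3 of 8 were called (MAX higher, ARRDC3 and MLX lower) beside 46.7%, 12.1% higher and 34.6% lower, and with the kind term 5 members beside 44.7%. The pooled counts therefore show nothing particular to the network. With the kind term the share of members was above that of all genes in both comparisons that hold RPL3L-WT. Those shares rest on 8 members, and the excess was not tested.

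Among the variants, D308N had the most members called against RPL3L-WT, 5 of 9, beside 33.2% of all genes, and also 5 with the kind term, beside 30.3%. D308V and R343W had 3 of 9 each, beside 30.6% and 33.7% of genes, and 4 each with the kind term, beside 28.9% and 31.4%. For R343W those were TXNIP, MAX and MYC pooled and TXNIP, MLX, MNT and MXI1 with the kind term. R161W had 2 of 9, TXNIP and MXI1, beside 16.7% (25.0% with the kind term, and then 4 members). G27D had TXNIP alone beside 3.32% of genes (10.3% with the kind term), P291L had MYC alone beside 2.75% (1.98%, and then no member), and T189M had none beside 1.80% (10.6%, and then MAX, 0.24 lower in T189M, adjusted p = 0.019, limma). Against shRPL3, P291L had 1 of 8 members called beside 19.6% of genes, D308N 2 beside 18.1%, and D308V and R343W none beside 16.3% and 19.7%. With the kind term those 4 comparisons called 35.8%, 33.4%, 32.1% and 35.5% of genes and 2, 4, 3 and 2 members. Between D308N and D308V, ARRDC3 was the member called, beside 1.64% of genes (8.26% with the kind term).

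**Figure D3:**
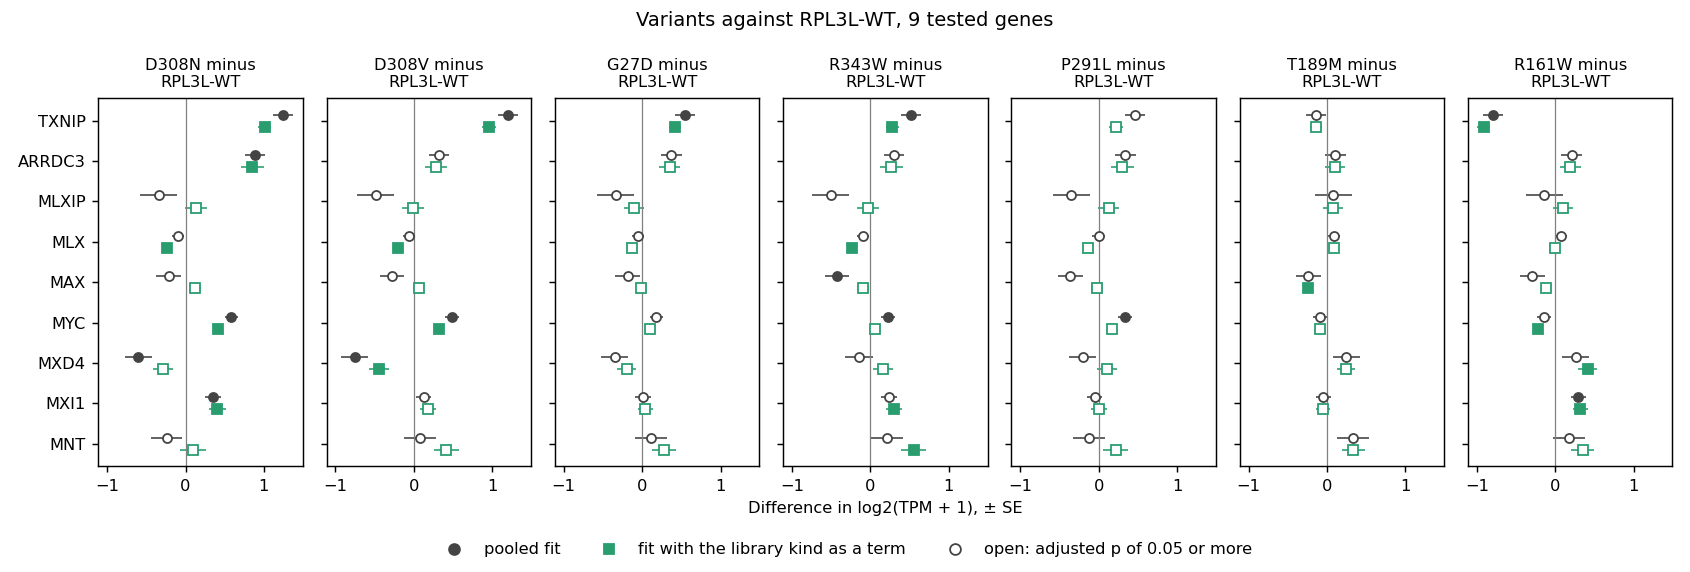
Difference on the log2(TPM + 1) scale between each variant and RPL3L-WT for the 9 tested genes, with bars of ± SE; grey circles are the fit that pools all libraries, green squares the fit with the library kind as a term, and filled symbols have an adjusted p under 0.05. TXNIP is near 1.2 in D308N and D308V pooled and -0.80 in R161W.

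The directions of all genes depend on the scaling between libraries in most of these comparisons. Median-ratio scaling moved the share of called genes that were higher to 51.5% for RPL3L-WT against shRPL3 and 50.5% for RPL3L-WT against shScramble, where the TPM as deposited gave 16.0% and 25.9%. That scaling brings the median ratio of every library to a common value, so a share near 50% is largely built into it. The shares therefore cannot tell which scaling is right. Against RPL3L-WT, scaling gave 48.5% where unscaled TPM gave 71.5% in D308N, 50% and 70.5% in D308V, 49.3% and 72.7% in R343W, 49.4% and 75.6% in R161W, 52.4% and 77.3% in T189M, and 47.8% and 60.5% in P291L. Against shRPL3, scaling gave 52.6% and unscaled TPM 23.7% in P291L, 47.7% and 31.7% in D308N, 51.3% and 31.8% in D308V, and 50.8% and 36.7% in R343W. For D308N against D308V the shares were 34.7% scaled and 47.3% unscaled. The median log2 difference over all genes was -0.19 for RPL3L-WT minus shRPL3, 0.13 for D308N, 0.11 for D308V, 0.13 for R343W and 0.10 for R161W minus RPL3L-WT, and the differences given for single genes are not corrected for those shifts. For shRPL3 against shScramble the median was -0.01.

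TXNIP, MYC and MXD4 varied together over the 9 groups with the hairpin. Over those 9 group means of log2(TPM + 1), TXNIP had a Pearson r of 0.955 with MYC and -0.948 with MXD4, and 0.941 and -0.881 over first-kind libraries alone. The r to TXNIP was -0.792 for MLX, 0.693 for ARRDC3, 0.575 for ARRDC4, -0.684 for MLXIP, -0.552 for MNT, 0.182 for MXI1 and -0.171 for MAX. Over first-kind libraries alone it was -0.669 for MLX, 0.589 for ARRDC3, 0.56 for ARRDC4, -0.355 for MLXIP, -0.186 for MNT, 0.225 for MXI1 and 0.625 for MAX, whose sign differs. These are descriptions over few groups that share a construct design and the library kinds, and they carry no test. All genes were not ranked over these 9 means, so how many others vary with TXNIP as closely is unknown. shScramble was left out because its TXNIP level stands far from the rest, and with it the r of MYC was 0.708 and that of MXD4 -0.549. Of 3298 genes ranked with shScramble included, 311 had a higher r to TXNIP than MYC.

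**Figure D4:**
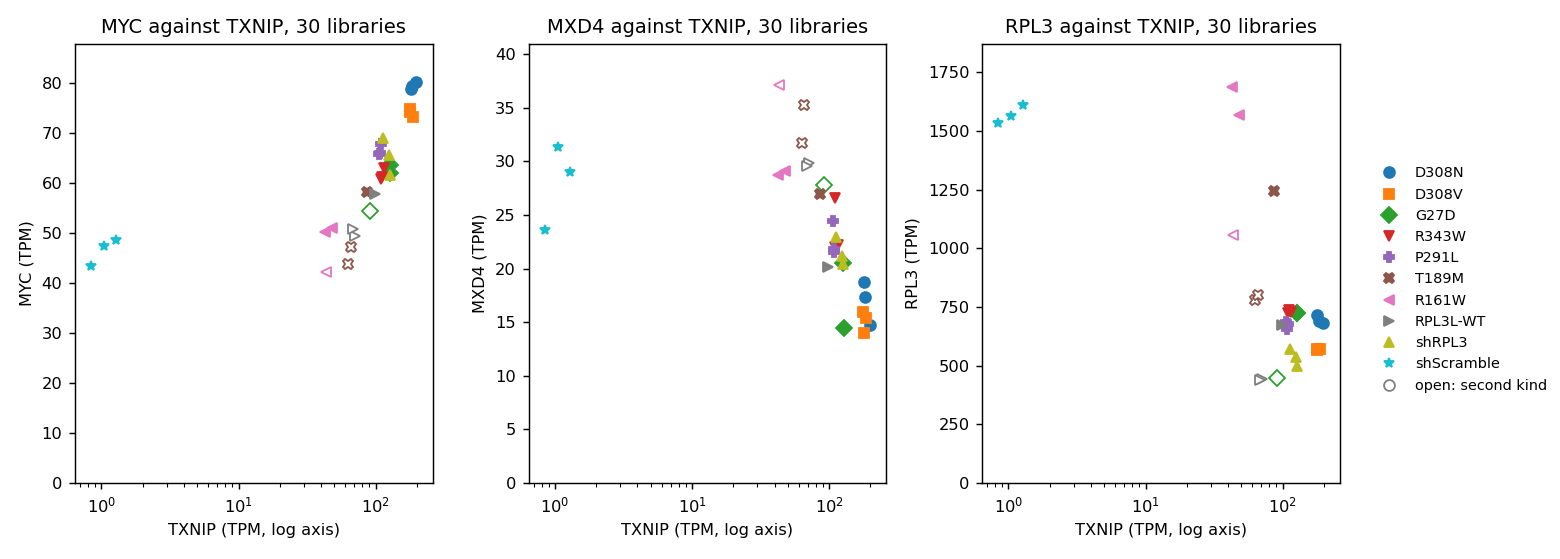
MYC, MXD4 and RPL3 against TXNIP, in TPM, in the 30 libraries; open symbols are second-kind libraries. Apart from the 3 shScramble libraries near 1 TPM of TXNIP, MYC is high and MXD4 low where TXNIP is high, and R161W libraries combine the lowest TXNIP with RPL3 at 1059 to 1686 TPM.

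Genes that neighbour the network moved in groups when shRPL3 was set against shScramble. All lists were chosen with earlier results of these data known, so the counts of every list are descriptions and not independent support. Of 29 tested MYC target genes, 20 were higher and none lower, with a median difference of 0.49 on the log2 scale where the median of all genes was -0.01 and 17.2% of all genes were called higher and 18.0% lower. The kind term gave 22 higher and 1 lower, beside 24.4% and 24.5% of all genes. Leaving out shRPL3 replicate 3 gave 19 higher and none lower. ODC1, the first enzyme of polyamine synthesis, averaged 204.0 TPM in shRPL3 and 110.1 TPM in shScramble (adjusted p = 1.13e-08, limma). MRTO4 and NOP2, ribosome assembly factors, averaged 76.4 and 88.3 TPM in shRPL3, against 41.7 and 49.9 TPM in shScramble (adjusted p = 1.63e-07 and 5.12e-07). SRM, spermidine synthase, averaged 229.9 TPM in shRPL3 and 135.9 TPM in shScramble (adjusted p = 2.21e-05).

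Thioredoxin and peroxiredoxin genes, the system that TXNIP binds into, had 6 of 13 lower and none higher, beside 18.0% and 17.2% of all genes, with a median of -0.37. The count was 8 lower and 1 higher with the kind term, beside 24.5% and 24.4% of all genes. It was 5 lower and none higher without shRPL3 replicate 3. TXNRD1, the cytosolic thioredoxin reductase, averaged 143.5 TPM in shRPL3 and 252.1 TPM in shScramble (difference -0.81 ± 0.09, adjusted p = 2.13e-07, limma). TXNRD3 was at 1.25 TPM against 3.15 TPM (-0.87), TXNRD2 at 18.3 TPM against 26.2 TPM (-0.50), and the peroxidase PRDX1 at 695.6 TPM against 980.1 TPM (-0.49), each in shRPL3 against shScramble (adjusted p = 0.000116, 0.00945 and 0.0306). TXN itself, the partner of TXNIP, was not called, at 558.6 TPM in shRPL3 and 530.6 TPM in shScramble.

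Glucose transport and sugar phosphorylation genes had 7 of 12 lower and 1 higher, beside 18.0% and 17.2% of all genes, with a median of -0.48. The count was 9 lower and 1 higher with the kind term, beside 24.5% and 24.4% of all genes. It was 7 lower and 1 higher without shRPL3 replicate 3. The transporter SLC2A6 averaged 5.34 TPM in shRPL3 and 15.9 TPM in shScramble (-1.41 ± 0.26, adjusted p = 0.000178, limma). SLC2A10 was lower by 0.67 (adjusted p = 0.023), and PFKFB4, a regulator of glycolysis, was the gene that rose, with 25.5 TPM in shRPL3 and 14.6 TPM in shScramble (0.77, adjusted p = 0.000157). SLC2A1, the main glucose transporter of most cell lines, differed by -0.49 and was not called (adjusted p = 0.0572).

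The remaining lists were short or mixed in direction. Their pooled counts are to be read beside the same 17.2% of all genes called higher and 18.0% lower. For all genes the kind term gave 24.4% higher and 24.5% lower, and scaling 18% and 19.4%. The MAX repressors MXD3 and MXD1 were lower in shRPL3, at 10.5 and 3.41 TPM, than in shScramble, at 24.0 and 4.62 TPM (-1.11 and -0.35, adjusted p = 0.000127 and 0.0224, limma), 2 of 3 tested. The arrestin-domain gene ARRDC1 was at 7.16 TPM in shRPL3 and 15.3 TPM in shScramble (-0.999, adjusted p = 0.00121), 1 of 2 tested. NEDD4-family ligases, which arrestin-domain proteins recruit, had 3 of 9 higher (HECW2, WWP2 and NEDD4, by 0.48, 0.37 and 0.23) and 1 lower (HECW1, -0.70). Their count was 3 higher and 2 lower with the kind term, and 2 and none without shRPL3 replicate 3. SIN3 corepressor genes had 7 of 15 higher and 1 lower, among them BRMS1 (0.65), ING2 (0.56), SAP18 (0.41) and ING1 (0.41), and 7 higher with 3 lower under the kind term. Their count was 5 higher and 2 lower after scaling, and 5 and 1 without shRPL3 replicate 3.

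Against RPL3L-WT, more MYC targets were called higher than lower in D308N, D308V and R343W, and more lower than higher in R161W. In D308N 15 of 29 were higher and 3 lower, in D308V 18 and 3, and in R343W 12 and 3. Of all genes, D308N called 23.7% higher and 9.48% lower, D308V 21.6% and 9.03%, and R343W 24.5% and 9.19%. In the same order, the counts with the kind term were 17 and 3, 21 and 2, and 16 and 4. All genes then gave 17.5% and 12.8%, 16.2% and 12.7%, and 18.8% and 12.6%. After scaling the counts were 9 and 3, 9 and 3, and 7 and 5. All genes then gave 15.4% and 16.4%, 15.1% and 15.1%, and 15.7% and 16.1%. In R161W 1 was higher and 15 lower, where all genes gave 12.6% higher and 4.07% lower. With the kind term 2 were higher and 19 lower in R161W, where all genes gave 16.1% and 8.87%. ODC1 averaged 128.6 TPM in R161W and 184.6 TPM in RPL3L-WT (-0.51 ± 0.08, adjusted p = 0.000129, limma), and 253.5 TPM in D308N (0.46, adjusted p = 0.000171). R161W also held more MXD3 (18.1 TPM against 8.64 TPM in RPL3L-WT, adjusted p = 0.00168) and ARRDC1 (11.7 TPM against 4.93 TPM, adjusted p = 0.00268). RPL3L-WT against shRPL3 had no MYC target higher and 9 of 29 lower, where 5.77% of all genes were higher and 30.2% lower, so the share lower is near that of all genes. It had none and 10 with the kind term, where all genes gave 6.27% and 20.1%. After scaling it had 1 and 2, where all genes gave 12.5% and 11.8%. Without shRPL3 replicate 3 it had none and 8. Beside these counts, fibroblast or mesenchymal markers had 6 of 10 lower and none higher in D308N, 6 and 1 in D308V, 8 and 1 in R343W, and none lower and 3 higher in R161W against RPL3L-WT. Under the kind term these markers had 9 lower and none higher in D308N, 7 and 1 in D308V, 9 and none in R343W, and 2 lower and 5 higher in R161W. Their part in these counts was not tested.

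**Figure D5:**
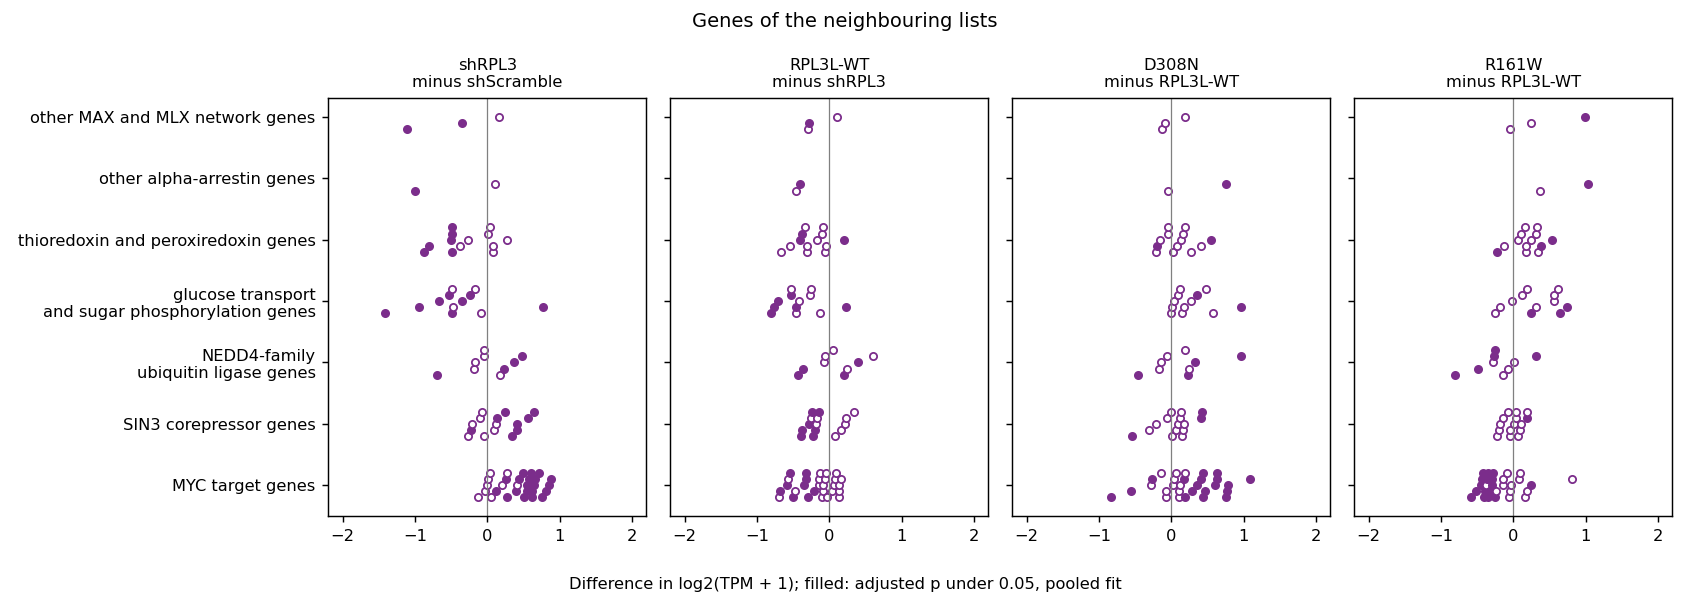
Difference on the log2(TPM + 1) scale for each tested gene of 7 lists in 4 comparisons, with filled points for an adjusted p under 0.05. MYC targets sit mostly above 0 for shRPL3 against shScramble, with 20 of 29 called higher, and mostly below 0 for R161W against RPL3L-WT, with 15 called lower.

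The genes most like TXNIP over all 10 group means were TMEM249, WDR53, LLPH, CCDC137 and SBDSP1, with r of 0.956 to 0.965 among 3298 genes whose group means span at least 1 on the log2 scale. Without shScramble r was 0.744 for TMEM249 and 0.931 for WDR53. SBDSP1 is a pseudogene copy of SBDS, and reads of near-identical copies may be split between them, so its level is uncertain. WDR53 averaged 35.6 TPM in D308N, 31.7 TPM in shRPL3, 24.3 TPM in R161W and 16.1 TPM in shScramble. Over first-kind libraries alone 1 of these 5, WDR53, stayed among the 5 most alike. For ARRDC4 the closest were C2orf88, RCAN1, ALKBH2, ZNF124 and MIR744, with r of 0.836 to 0.884, of which RCAN1 and ZNF124 stayed over first-kind libraries. MIR744 was at 0 TPM in several groups, among them shScramble and RPL3L-WT, and at 8.07 ± 10.7 TPM (mean ± SD) in D308V. Its r therefore says little. MYC ranked behind 311 genes in likeness to TXNIP over the 10 means, and ARRDC4 behind 293.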

How the data were processed

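PolyA RNA of 30 whole-cell libraries was analysed from the deposited table of TPM. Per the submitters' processing notes the tools were bedtools, Bowtie, kallisto and bcl2fastq 2.19, with no role stated for each. The values the authors deposited are TPM, which sums to the same total in every library and keeps no depth, so no counting interval can be given. All 30 columns matched a sample, and the 12 nuclear libraries were not used.

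Of 60606 genes (6 construct entries were set apart), 14426 with a mean of at least 1 TPM were tested on log2(TPM + 1) with limma 3.58.1 in R 4.3.3, in 1 model of 10 groups with a trended, robust prior. P-values are two-sided and Benjamini-Hochberg adjusted over all tested genes, with a threshold of 0.05. The fit was tested on simulated data. Alternatives were the library kind as a term, first-kind libraries only, a replicate block, a pseudocount of 0.1, no filter, median-ratio scaling, the 2 groups alone, and leaving out each library. List counts and ARRDC4 without shRPL3 replicate 3 were added after seeing the data. First-kind libraries alone left 1 library each in RPL3L-WT and T189M, which was assumed to vary like the other groups.

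The 10 genes and all lists were chosen with earlier results of these data known. Named genes were the 10, up to 4 genes of each list that were called without overlap in shRPL3 against shScramble, by size, and the 5 genes most alike TXNIP and ARRDC4. Of the genes that this rule names, 1 is not reported here. TXN and SLC2A1 fall outside this rule and were named after their values were seen. Same-numbered deviations of T189M and RPL3L-WT libraries correlated at 0.191 to 0.505. In both groups replicates 1 and 2 were of the second kind and replicate 3 of the first. Pairing by number and library kind therefore cannot be told apart there. In no other comparison were all same-numbered correlations above 0.1. They were -0.539 to -0.213 for G27D and -0.182 to 0.377 for R161W against RPL3L-WT. There the kinds fall on different replicate numbers, so pairing by number cannot be judged. Figures were drawn with matplotlib 3.10.9 in Python 3.11.15.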

Additional observations from a re-analysis of the deposited data

How the results depend on the processing

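Of 128 tested values of the members, the pseudocount of 0.1 changed no call and the replicate block changed 1. That was MXI1 in RPL3L-WT minus shRPL3 (-0.240, adjusted p = 0.049 from limma), where same-numbered deviations correlated at -0.043 to 0.022. No filter ended 8 calls, scaling ended 7 and made 9, the kind term ended 4 and made 20, first-kind libraries alone ended 11 and made 14, and fits of 2 groups alone ended 13 and made 8. Leaving out 1 library ended calls in 55 of 768 fits and made them in 16. MLX in RPL3L-WT minus shRPL3 reversed to 0.199 under scaling, and MAX in R343W minus RPL3L-WT to 0.001 in first-kind libraries. The block left the genes called within 1.5 times everywhere. It gave 264 for T189M against RPL3L-WT, where same-numbered deviations correlated, beside 260 without it.

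Genes called moved by over 1.5 times as follows, and the cause was not tested beyond the smaller number of libraries in some fits. With the kind term they were 1490 for G27D and 1528 for T189M against RPL3L-WT (479 and 260 pooled), 5171, 4813, 4627 and 5117 for P291L, D308N, D308V and R343W against shRPL3 (2834, 2609, 2350 and 2836 pooled), and 1191 for D308N against D308V (237 pooled). Between groups that hold first-kind libraries only, the kind term left each tested member's difference unchanged and lowered its SE. For MAX in D308N minus shRPL3 the difference was 0.380 in both fits, with an SE of 0.157 pooled and 0.064 with the term. First-kind libraries alone gave 2051 for RPL3L-WT against shRPL3 (5192 pooled), 125, 52 and 3175 for P291L, T189M and R343W against RPL3L-WT (397, 260 and 4862 pooled), 5481, 5103, 4908 and 5388 for P291L, D308N, D308V and R343W against shRPL3, and 1359 for D308N against D308V. Scaling gave 421 for D308N against D308V, and 689 and 779 for P291L and G27D against RPL3L-WT. Fits of 2 groups alone gave 1429 for RPL3L-WT against shRPL3, 4395 against shScramble, 2278 for R343W, 2210 for D308N, 1993 for D308V, 9 for T189M, 7 for P291L, 2 for R161W and 1 for G27D against RPL3L-WT, 5028 and 3940 for P291L and D308V against shRPL3, and 429 for D308N against D308V. Leaving out 1 library gave 2819 to 6958 for RPL3L-WT against shRPL3, 3162 to 6511 for R343W, 3092 to 6316 for D308N, 2811 to 6169 for D308V, 1291 to 4113 for R161W, 185 to 1681 for G27D, 84 to 715 for T189M and 82 to 4603 for P291L against RPL3L-WT, 1878 to 2206 for P291L against shRPL3, and 83 to 186 for D308N against D308V. The highest counts against RPL3L-WT came without its replicate 3. TPM keeps no depth, so what depth limits cannot be given.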
